A study of Mus musculus with 54 samples.

Results

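The genes described here are 43 genes of the autophagy machinery and its cargo receptors, as measured in livers of mice with and without folliculin in hepatocytes. They were chosen by name, with earlier results of these data known: 45 gene symbols were listed, and 43 of them were symbols of the 13815 genes in the deposited RNA-seq table. The other two, Atg101 and Epg5, are in the table under older symbols, were found by Ensembl identifier and are given apart. The series holds RNA-seq of 15 liver libraries and chromatin immunoprecipitation sequencing (ChIP-seq) of 39 ChIP and input libraries of liver.

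All RNA-seq mice were Flcnlox/lox, with both alleles of Flcn floxed. They received 1.5e11 genome copies of an adeno-associated virus of serotype AAV8 with a TBG promoter, which is active in hepatocytes. Control mice received the virus with GFP, and LiFKO mice the virus with Cre, so that Flcn was targeted in hepatocytes and not in the other liver cells. Mice labelled DKO were floxed for Flcn, carried a Tfe3 -/Y deletion in the whole body and received Cre. From about 1 week after the virus the mice ate normal chow or the AMLN diet, which is used to model fatty liver disease, for 17 to 18.5 weeks. They were fasted for 4 to 6 hours before the liver was taken, and their age is not given. There were 3 libraries each of chow Control, chow LiFKO, AMLN Control, AMLN LiFKO and AMLN DKO. RNA of DKO livers on chow, or of livers lacking Tfe3 alone, was not analysed here. Whether DKO and LiFKO mice were littermates is not given, so breeding line and genotype cannot be told apart. The labels do not say that the 3 libraries of a group came from separate mice, so the p-values measure the spread between these libraries, which may be technical.

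Autophagy encloses part of the cytoplasm in a membrane that closes into an autophagosome and fuses with the lysosome. The ULK kinase complex starts the process, and a class III phosphatidylinositol 3-kinase marks the membrane with PI3P. WIPI proteins bind that lipid, ATG2 and ATG9 supply membrane lipids, and a ubiquitin-like conjugation system attaches LC3 and GABARAP proteins to the membrane, where cargo receptors dock. In liver, autophagy is known for turning over mitochondria, protein aggregates, glycogen and lipid droplets during fasting. TFE3, like its relatives TFEB and MITF, is a transcription factor of lysosomal and autophagy genes that mTORC1 keeps in the cytoplasm when it is phosphorylated, and folliculin activates the RagC and RagD GTPases that this phosphorylation needs.

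TFE3 and its relatives bind the letters CACGTG, the core of the motif known as CLEAR. The stretches of 30 bases around each CACGTG in RefSeq's promoter windows of the genes are shown first, because they are the places where the promoter letters hold this core. A window covers 250 bases before to 50 after a start site (GRCm38.p6), and 36 of the 43 genes matched one. CACGTG reads the same on both strands, capitals mark it, and each sequence runs 5′ to 3′ on the strand of the gene.
Atg7: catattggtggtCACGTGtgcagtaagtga
Atg3, farther from the start: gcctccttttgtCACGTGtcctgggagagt
Atg3, nearer to the start: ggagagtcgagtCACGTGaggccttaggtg
Atg5: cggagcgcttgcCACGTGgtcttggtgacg
Atg14: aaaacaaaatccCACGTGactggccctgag
Bnip3: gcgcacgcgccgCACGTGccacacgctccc
These lie at chr6:114670952-114670981 (plus strand, Atg7), chr16:45158723-45158752 and chr16:45158746-45158775 (plus strand, Atg3), chr10:44268313-44268342 (plus strand, Atg5), chr14:47568418-47568447 (minus strand, Atg14) and chr7:138909597-138909626 (minus strand, Bnip3). CACGTG was in the windows of 5 of 36 members (13.9%) and of 8.09% of the 27025 genes with a window. TCACGTG, the core with one flanking letter and therefore part of the same matches, was in 3 members (Atg3, Atg7 and Atg14, 8.33%, against 4.29% of all genes). TCATGTG, a related motif of this factor family, was in 0 members against 4.31% of genes, and the CLEAR palindrome, the core between GT and AC, in 0 members against 0.37% of genes. All motifs were searched on both strands, and no match says only that the letters are not in this window. The window of Atg7 may mark another start than the one used for TFE3 peaks below, which was not tested.

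For comparison, the 250 bases before the start are shown for 3 genes, with every CANNTG, the wider E-box, in capitals. These 3 are among the genes higher in LiFKO on both diets that had a TFE3 peak at the start in both chow lists.
Gabarapl1: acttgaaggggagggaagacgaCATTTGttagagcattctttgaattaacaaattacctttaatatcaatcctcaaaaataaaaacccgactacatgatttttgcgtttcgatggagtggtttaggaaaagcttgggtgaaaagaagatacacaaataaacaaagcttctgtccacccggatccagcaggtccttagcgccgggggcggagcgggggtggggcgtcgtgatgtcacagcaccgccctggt
Map1lc3b: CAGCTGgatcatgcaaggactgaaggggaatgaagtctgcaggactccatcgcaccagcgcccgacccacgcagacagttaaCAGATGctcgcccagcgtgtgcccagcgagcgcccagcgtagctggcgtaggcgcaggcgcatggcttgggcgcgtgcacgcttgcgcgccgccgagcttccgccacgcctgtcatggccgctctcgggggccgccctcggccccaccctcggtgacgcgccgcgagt
Ulk1: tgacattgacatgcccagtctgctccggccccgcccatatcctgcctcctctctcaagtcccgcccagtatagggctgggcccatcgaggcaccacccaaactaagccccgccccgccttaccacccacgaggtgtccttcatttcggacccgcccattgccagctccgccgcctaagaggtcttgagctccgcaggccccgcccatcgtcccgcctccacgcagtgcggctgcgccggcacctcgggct
They lie at chr6:129532942-129533191 (plus strand, Gabarapl1), chr8:121590188-121590437 (plus strand, Map1lc3b) and chr5:110810082-110810331 (minus strand, Ulk1). Gabarapl1 held 1 CANNTG, Map1lc3b 2 and Ulk1 0, and none of the 3 stretches held CACGTG. Of the genes that meet the same terms and are not printed, Gabarap, Wipi1 and Atg10 held no CANNTG and Optn did. Over these 250 bases CANNTG was present in 19 of 36 members (52.8%) and in 69.3% of all genes with a window.

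The targeted genes were read first, as log2 values deposited by the authors. The values have the same quartiles in every library, the unit under the log is not given in the sources used here, and with no counts the depth behind each value is unknown. Flcn was at 11.33, 11.55 and 11.44 in chow Control and at 10.55, 10.14 and 10.53 in chow LiFKO. On AMLN it was at 10.98, 10.92 and 11.06 in AMLN Control, 10.25, 10.56 and 10.43 in AMLN LiFKO and 9.12, 9.45 and 9.91 in AMLN DKO. Differences are log2 differences of group means, tested with limma, a linear model over all genes with Benjamini-Hochberg adjusted p, called at an adjusted p under 0.05. Flcn was lower in LiFKO on both diets (-1.03, SE 0.17, adjusted p = 0.000394 on chow and -0.57, SE 0.17, adjusted p = 0.0257 on AMLN). It was lower again in DKO than in LiFKO (-0.92, SE 0.17, adjusted p = 0.00242). Tfe3 was at 10.2, 9.88 and 9.89 in DKO, 9.92, 10.02 and 10.07 in AMLN LiFKO and 10.2, 10.3 and 10.23 in AMLN Control. Its RNA did not differ measurably between DKO and LiFKO (-0.01, SE 0.12, adjusted p = 0.967). On chow it was at 10.35, 10.57 and 10.27 in Control and 10.18, 10.18 and 10.54 in LiFKO. Which part of Tfe3 is deleted is not given in the sources used here, so the label DKO could not be checked on RNA, and DKO below means the libraries labelled DKO. Of the relatives, Tfeb was higher in DKO than in LiFKO (0.45, SE 0.13, adjusted p = 0.0383), and Mitf passed the threshold in none of the 7 comparisons.

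The livers carried high levels of hepatocyte markers (Alb at 20.1 to 21.47 and Apoa1 at 17.8 to 19.37 over the 15 libraries). Summed over 10 hepatocyte markers, the log2 level was 22.31 to 22.39 in chow Control and 21.59 to 22.01 in chow LiFKO. On AMLN it was 22.27 to 22.32 in Control, 21.79 to 21.86 in LiFKO and 22.29 to 22.33 in DKO, so it was lower in LiFKO on both diets with no overlap. Single markers moved both ways: of the 10, 2 were higher and 2 lower in LiFKO on chow, and 1 was higher and 0 lower on AMLN. In DKO against LiFKO 0 of the 10 were called. The sum gives most weight to the highest markers, such as Alb. The summed level of 7 endothelial markers was 13.56 to 13.94 in chow Control and 13.96 to 14.19 in chow LiFKO, and 13.6 to 13.79, 14.22 to 14.3 and 13.85 to 14.08 in AMLN Control, LiFKO and DKO. That of 10 macrophage markers was 14.42 to 14.61 in AMLN Control and 14.55 to 15.32 in AMLN LiFKO. That of 7 of 8 stellate cell and fibrosis markers was 11.78 to 12.36 in chow Control, 12.98 to 13.67 in AMLN Control and 12.57 to 12.83 in AMLN LiFKO. That of 5 of 6 cholangiocyte markers was 12.07 to 12.68 in AMLN Control and 10.4 to 11.9 in AMLN LiFKO. Both sums were lower in AMLN LiFKO with no overlap. These sums also follow their highest markers, such as Spp1 (9.46 to 12.58) among the cholangiocyte markers. Of single markers, 1 of 7 stellate cell and fibrosis and 1 of 5 cholangiocyte markers were lower on AMLN (medians -0.6 and -0.23). Of 7 endothelial markers 2 were higher on chow (median -0.04) and 1 on AMLN (median 0.13). Of 5 erythroid markers 3 were lower in LiFKO on chow (median -1.13; summed level 15.63 to 16.8 in Control and 14.89 to 15.65 in LiFKO). Of the lymphocyte markers, 2 of 10 were among the genes measured. In whole liver, fewer cells of a type and less RNA per cell cannot be told apart, and the part of these marker levels in the results below was not tested. AMLN Control replicate 3 stood apart from the other libraries of its group on the second principal component of all genes (-11.4 against -37 and -31.9). The DKO libraries were also spread widely on this component (-30, -18.2 and -2.1 in replicates 1 to 3).

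In LiFKO livers some members were higher and others lower than in Control, and the ones that were higher were largely the same on the 2 diets. On chow, 10 of the 43 members were higher in LiFKO and 7 lower (adjusted p under 0.05), where 12.5% of all genes were higher and 13.2% lower. On AMLN diet, 9 were higher and 2 lower, where 10.1% of all genes were higher and 9.63% lower. The median difference of the members was -0.03 on chow and 0.05 on AMLN, against -0.05 and -0.02 over all genes. The groups did not overlap in 27 members on chow (41.9% of all genes) and in 24 on AMLN (35.4%). The 2 diets used separate libraries, and 8 members were higher in LiFKO on both: Ulk1, Wipi1, Atg7, Atg10, Map1lc3b, Gabarap, Gabarapl1 and Optn. They are 80% of the members higher on chow and 88.9% of those higher on AMLN, where the shares over all genes were 53.8% and 66.6%. Of the members lower in LiFKO, 1 was lower on both diets, Map1lc3a, which is 14.3% of those lower on chow and 50% of those lower on AMLN (39.6% and 54.2% over all genes). Without chow LiFKO replicate 3 the chow count was 11 in place of 17. Same-numbered chow libraries deviated together, and with that pairing as a block 14 chow calls were left: Atg13 (adjusted p = 0.098), Becn1 (adjusted p = 0.0668) and Atg10 (adjusted p = 0.138) no longer passed.

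**Figure D1:**
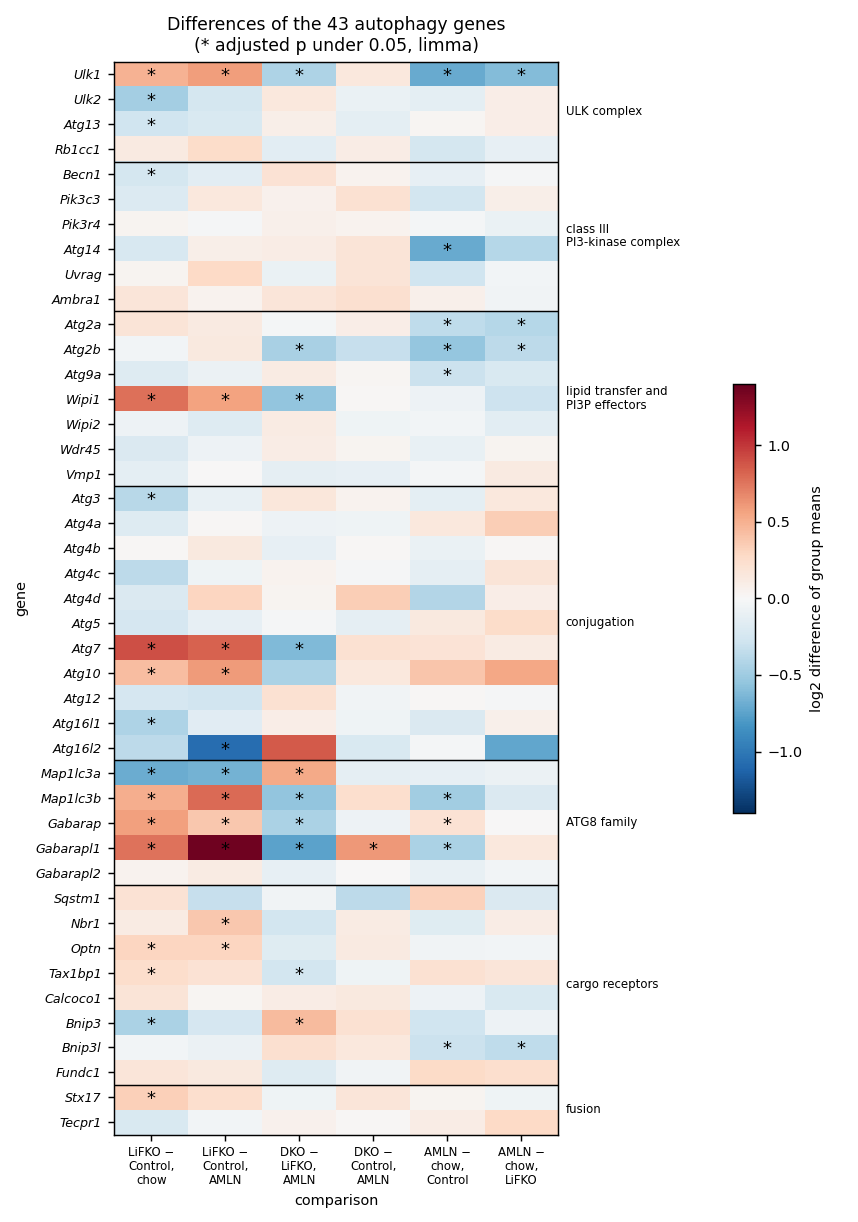
Log2 differences of group means (colour) of the 43 members, in rows grouped by role, for 6 comparisons in columns; an asterisk marks an adjusted p under 0.05 in limma. Asterisks stand in the first 3 columns at Ulk1, Wipi1, Atg7, Map1lc3b, Gabarap and Gabarapl1, and at Map1lc3a, where the signs are reversed. The fourth column holds 1 asterisk, at Gabarapl1.

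In the ULK complex, Ulk1 and its partners moved in different directions. Ulk1, the kinase that starts autophagy and a direct target of mTORC1, was at 12.91, 12.96 and 12.83 in chow Control and 13.31, 13.21 and 13.64 in chow LiFKO. AMLN libraries were at 12.18, 12.12 and 12.28 in Control, 12.77, 12.84 and 12.72 in LiFKO and 12.33, 12.28 and 12.42 in DKO. All LiFKO libraries were above all Control libraries of the same diet, and all DKO libraries were below all AMLN LiFKO libraries. The difference of LiFKO from Control was 0.49 (SE 0.10, adjusted p = 0.0022, limma) on chow and 0.58 (SE 0.10, adjusted p = 0.000797) on AMLN. Ulk2, its close relative, was lower in LiFKO on chow (11.42, 11.27 and 11.55 against 11.75, 11.74 and 12.18 in Control), with a difference of -0.48 (SE 0.12, adjusted p = 0.0102), while on AMLN its difference of -0.25 did not pass. Atg13, the adaptor subunit, was lower on chow (-0.28, SE 0.08, adjusted p = 0.0261), and Rb1cc1, which encodes the scaffold FIP200, passed in neither comparison (0.12 on chow and 0.25 on AMLN). Atg101, the binding partner of Atg13, listed in the table under its older symbol, was lower in LiFKO on both diets (-0.47, SE 0.10, adjusted p = 0.00323 on chow and -0.42, SE 0.10, adjusted p = 0.00825 on AMLN) and higher in DKO than in LiFKO (0.38, SE 0.10, adjusted p = 0.0248).

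In the class III phosphatidylinositol 3-kinase complex 1 of 6 members, Becn1, was called between LiFKO and Control, on chow. It encodes the regulatory subunit beclin 1 and was at 11.44, 11.47 and 11.52 in chow Control and 11.29, 11.25 and 11.14 in chow LiFKO. On AMLN it was at 11.32, 11.45 and 11.3 in Control, 11.2, 11.29 and 11.13 in LiFKO and 11.5, 11.36 and 11.37 in DKO, so LiFKO was lower with no overlap on both diets. The difference was -0.25 (SE 0.08, adjusted p = 0.0264, limma) on chow and -0.15 on AMLN, where it did not pass. The chow call held in 2 of 6 fits that left out 1 library. The catalytic subunit Pik3c3 (-0.19 on chow and 0.15 on AMLN), Pik3r4 (0.04 and -0.02), the subunit of the autophagy complex Atg14 (-0.23 and 0.08) and the adaptor Ambra1 (0.17 and 0.05) did not pass on either diet. Uvrag, the subunit that takes the place of Atg14 in the endosomal complex, was at 11.21, 11.12 and 11.14 in chow Control and 11.4, 11.18 and 11.01 in chow LiFKO. AMLN libraries were at 10.87, 10.72 and 11.05 in Control, 11.18, 11.24 and 11.04 in LiFKO and 10.89, 11.09 and 11.2 in DKO. Its groups overlapped in both LiFKO comparisons (0.04 on chow and 0.27 on AMLN, adjusted p = 0.111).

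Among the lipid transfer proteins and PI3P effectors, Wipi1 alone of 7 members differed between LiFKO and Control. Wipi1, which binds PI3P on the forming membrane, was at 10.1, 10.04 and 10.2 in chow Control and 10.83, 10.74 and 11.1 in chow LiFKO. The AMLN values were 10.15, 10.01 and 9.95 in Control, 10.61, 10.45 and 10.76 in LiFKO and 9.86, 10.08 and 10.22 in DKO. LiFKO stood above Control on both diets, and the DKO libraries overlapped AMLN Control. The difference of LiFKO from Control was 0.78 (SE 0.12, adjusted p = 0.000315, limma) on chow and 0.56 (SE 0.12, adjusted p = 0.00428) on AMLN. Its paralog Wipi2, which recruits Atg16l1, differed by -0.07 and -0.18, and the other WIPI family gene of the list, Wdr45, by -0.21 and -0.07, none past the threshold. Atg2a and Atg2b, the lipid transfer proteins, Atg9a, the scramblase, and Vmp1, a scramblase of the endoplasmic reticulum, differed by -0.18 to 0.18 on both diets without passing.

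The conjugation enzymes went in both directions. Atg7, the E1-like enzyme that activates both Atg12 and the LC3 and GABARAP proteins, was at 11.23, 11.31 and 11.62 in chow Control and 12.36, 12.18 and 12.34 in chow LiFKO. AMLN libraries were at 11.67, 11.68 and 11.38 in Control, 12.43, 12.37 and 12.42 in LiFKO and 11.79, 11.77 and 11.8 in DKO. All 6 LiFKO libraries were above all 9 others. The difference of LiFKO from Control was 0.91 (SE 0.10, adjusted p = 2.54e-05, limma), the largest positive difference of the 43 members on chow, and 0.83 (SE 0.10, adjusted p = 8.09e-05) on AMLN. Atg10, the E2-like enzyme for Atg12 and one of the members with low values, was at 8.03, 7.84 and 7.99 in chow Control and 8.2, 8.59 and 8.37 in chow LiFKO. Under AMLN it was at 8.37, 8.27 and 8.37 in Control, 9.17, 8.87 and 8.75 in LiFKO and 8.34, 8.51 and 8.6 in DKO. LiFKO and Control did not overlap on either diet. The difference was 0.43 (SE 0.15, adjusted p = 0.045, limma) on chow, a call that held in 1 of 6 fits leaving out 1 library. It was 0.59 (SE 0.15, adjusted p = 0.0111) on AMLN, a call lost without AMLN LiFKO replicate 1.

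Of the 11 conjugation genes, Atg3 and Atg16l1 were lower in LiFKO on chow, and 7 did not pass there. Atg3, the E2-like enzyme for LC3 and the gene with a pair of CACGTG sites, was at 12.21, 12.15 and 12.23 in chow Control and 11.81, 11.81 and 11.79 in chow LiFKO (-0.39, SE 0.08, adjusted p = 0.0018, limma). On AMLN diet it was at 12.03, 12.11 and 12.02 in Control, 11.98, 11.94 and 11.92 in LiFKO and 11.95, 12.27 and 12.08 in DKO. LiFKO and Control did not overlap there, but their difference of -0.11 did not pass. Atg16l1, which places the conjugation enzyme on the membrane, was also lower on chow (-0.43, SE 0.09, adjusted p = 0.00276) and not called on AMLN (-0.16). Its paralog Atg16l2 was lower on AMLN diet (-1.06, SE 0.30, adjusted p = 0.0217), on widely spread values: 8.46, 8.13 and 9.28 in Control against 7.01, 7.62 and 8.05 in LiFKO. It did not pass without AMLN Control replicate 3 or without AMLN LiFKO replicate 1. Atg5, which with Atg12 forms the E3-like conjugate, was at 11.46, 11.24 and 11.5 in chow Control and 11.17, 11.06 and 11.28 in chow LiFKO. Its AMLN values were 11.65, 11.34 and 11.62 in Control, 11.42, 11.53 and 11.32 in LiFKO and 11.4, 11.42 and 11.4 in DKO. The groups overlapped on both diets. Atg5 (-0.23 and -0.11), Atg12 (-0.23 and -0.27) and the 4 proteases that trim LC3, Atg4a, Atg4b, Atg4c and Atg4d (-0.36 to 0.31 over both diets), did not pass in either comparison.

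In the ATG8 family, the proteins attached to the autophagosome membrane, 3 of 5 members were higher in LiFKO on both diets and 1 was lower on both. Gabarapl1 was at 14.62, 14.85 and 14.95 in chow Control and 15.43, 15.51 and 15.75 in chow LiFKO. On AMLN it stood at 14.39, 14.5 and 14.19 in Control, 15.77, 15.57 and 15.8 in LiFKO and 14.9, 15.04 and 14.97 in DKO. On both diets the groups stood clear of each other. The difference of LiFKO from Control was 0.76 (SE 0.12, adjusted p = 0.000264, limma) on chow and 1.36 (SE 0.12, adjusted p = 3.13e-06) on AMLN, the largest of the members there. Map1lc3b, which encodes LC3B, was at 12.68, 12.59 and 12.54 in chow Control and 13.04, 13.14 and 13.15 in chow LiFKO. With AMLN it was at 12.02, 12.1 and 12.22 in Control, 12.91, 12.9 and 12.89 in LiFKO and 12.33, 12.38 and 12.34 in DKO. All LiFKO libraries were above the others, by 0.51 (SE 0.07, adjusted p = 0.000105, limma) on chow and 0.79 (SE 0.07, adjusted p = 3.86e-06) on AMLN.

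Gabarap, the founding member of its subfamily, was at 13.11, 13.1 and 13.12 in chow Control and 13.69, 13.66 and 13.7 in chow LiFKO. On AMLN diet its libraries were at 13.3, 13.32 and 13.31 in Control, 13.64, 13.79 and 13.64 in LiFKO and 13.29, 13.31 and 13.14 in DKO. LiFKO did not overlap any other group of its diet. It was higher in LiFKO by 0.57 (SE 0.07, adjusted p = 3.41e-05, limma) on chow and 0.38 (SE 0.07, adjusted p = 0.00133) on AMLN. Map1lc3a, which encodes LC3A, went the other way. It was at 11.26, 11.19 and 11.13 in chow Control against 10.28, 10.7 and 10.51 in chow LiFKO, and at 11.3, 11.18 and 10.74 in AMLN Control against 10.59, 10.25 and 10.42 in AMLN LiFKO. It was lower on chow (-0.70, SE 0.16, adjusted p = 0.00557, limma) and on AMLN (-0.66, SE 0.16, adjusted p = 0.01), the latter not passing without AMLN Control replicate 1. Map1lc3a shares 1777 bases of its span with Pigu. Sqstm1, Vmp1, Atg4b and Atg4d also overlap another gene, by 599 to 3339 bases, and as it is not given whether the counting used strand, reads of such pairs cannot be told apart. The fifth member, Gabarapl2, also known as GATE-16, differed by 0.05 and 0.11 and did not pass.

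**Figure D2:**
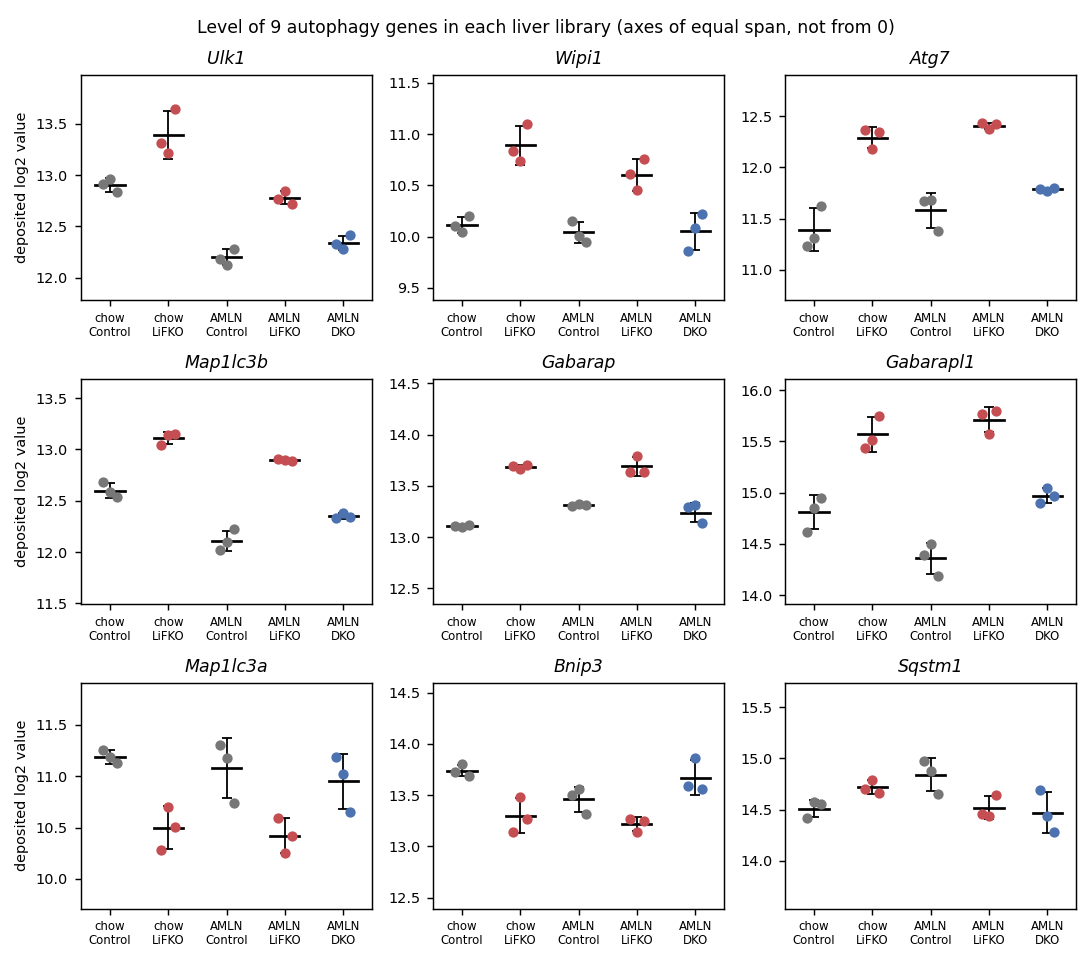
Deposited log2 value (vertical axis; each panel spans the same range and does not start at 0) of 9 members in the 15 libraries by group; points are libraries, bars the mean and SD of 3. In Ulk1, Wipi1, Atg7, Map1lc3b, Gabarap and Gabarapl1 the LiFKO points lie above the Control points of the same diet, and the DKO points below those of AMLN LiFKO; in Sqstm1 the LiFKO points lie above Control on chow and below it on AMLN.

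Cargo receptors, which bind cargo and ATG8 proteins, were called in both directions. Sqstm1, which encodes p62 and is the receptor for ubiquitinated cargo, was at 14.42, 14.57 and 14.55 in chow Control and 14.7, 14.79 and 14.66 in chow LiFKO. The AMLN libraries had 14.97, 14.88 and 14.65 in Control, 14.46, 14.44 and 14.64 in LiFKO and 14.69, 14.44 and 14.28 in DKO. The LiFKO libraries lay above all Control libraries on chow and below all of them on AMLN, there by a narrow margin (14.64 against 14.65). Neither difference passed (0.21, 95% interval -0.04 to 0.45, on chow and -0.32, 95% interval -0.57 to -0.07, adjusted p = 0.057, on AMLN, limma). Without AMLN Control replicate 3, without AMLN LiFKO replicate 3 or with library weights, the AMLN difference passed. Nbr1, the related receptor, was at 13.94, 13.77 and 13.79 in AMLN Control and 14.35, 14.21 and 14.07 in AMLN LiFKO (13.92, 14 and 13.94 in DKO), higher by 0.37 (SE 0.08, adjusted p = 0.00449). On chow it was at 13.94, 13.98 and 14.08 against 14.11, 14.11 and 14.12, where the difference of 0.11 did not pass. Optn, a mitophagy receptor, was higher by 0.30 on both diets (SE 0.09, adjusted p = 0.0238 on chow and 0.0285 on AMLN), with calls that held in 2 of 6 fits that left out 1 library on either diet. Tax1bp1, which also binds ubiquitinated cargo, was higher on chow (0.25, SE 0.08, adjusted p = 0.032), also in 2 of 6 such fits.

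Bnip3, a mitophagy receptor of the outer mitochondrial membrane known as a hypoxia-induced gene, was lower in LiFKO on chow. It was at 13.73, 13.8 and 13.69 in chow Control and 13.14, 13.48 and 13.27 in chow LiFKO. AMLN values were 13.5, 13.56 and 13.32 in Control, 13.27, 13.14 and 13.25 in LiFKO and 13.59, 13.86 and 13.56 in DKO. The groups did not overlap on either diet, and the difference was -0.45 (SE 0.10, adjusted p = 0.00526, limma) on chow and -0.24, which did not pass, on AMLN. Its relative Bnip3l differed by -0.03 and -0.09, Calcoco1 by 0.18 and 0.03 and the mitophagy receptor Fundc1 by 0.17 and 0.14, none past the threshold. Of the fusion genes, Stx17, the SNARE of the closed autophagosome, was higher on chow (0.33, SE 0.12, adjusted p = 0.0471), a call that none of the 6 fits without 1 library kept, and Tecpr1, a tether, was not called (-0.21 and -0.04).

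Whether the Flcn effect differed between diets was tested as an interaction, and 0 of 43 members passed (limma; 1.04% of all genes did), while 8 (18.6%) had an unadjusted p under 0.05, against 15.7% of all genes. The smallest p was that of Gabarapl1, whose LiFKO difference was larger on AMLN than on chow by 0.60 (95% interval 0.23 to 0.96, adjusted p = 0.0948). That of Sqstm1 was lower on AMLN (-0.53, 95% interval -0.88 to -0.18, adjusted p = 0.122), and it passed without AMLN Control replicate 3 and with library weights. Map1lc3b (0.28, adjusted p = 0.173), Atg3 (0.29, adjusted p = 0.222), Pik3c3 (0.34, adjusted p = 0.257) and Nbr1 (0.26, adjusted p = 0.28) followed. Pik3c3 was at 10.5, 10.71 and 10.74 in chow Control, 10.58, 10.33 and 10.46 in chow LiFKO, 10.33, 10.42 and 10.42 in AMLN Control and 10.66, 10.45 and 10.51 in AMLN LiFKO. It lay lower in LiFKO on chow with overlap and higher on AMLN without. A difference between diets in the LiFKO effect was thus not shown for any single member.

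On AMLN diet, the libraries labelled DKO were set against LiFKO, a comparison that asks what removal of Tfe3 changes in the absence of Flcn. In DKO, 8 members were lower than in LiFKO and 2 higher, where 5.97% of all genes were lower and 5.05% higher. The groups did not overlap in 20 members (28.7% of all genes), and the members' median was -0.02 against 0.02. This comparison shares the AMLN LiFKO libraries with the one above, so the values are set side by side and their overlap is not counted. Among the lower members were Gabarapl1 (-0.74, SE 0.12, adjusted p = 0.000893, limma), Atg7 (-0.62, SE 0.10, adjusted p = 0.00158), Map1lc3b (-0.55, SE 0.07, adjusted p = 0.000143), Wipi1 (-0.55, SE 0.12, adjusted p = 0.00915), Gabarap (-0.45, SE 0.07, adjusted p = 0.000771) and Ulk1 (-0.43, SE 0.10, adjusted p = 0.0107). All 6 of these calls, and the 12 of the same genes in LiFKO against Control, held in every fit that left out 1 library. Atg2b was also lower in DKO (-0.45, SE 0.09, adjusted p = 0.00404), at 11.1, 10.93 and 11.13 against 11.67, 11.42 and 11.43 in LiFKO, though LiFKO and Control had not differed in it (0.13). Tax1bp1 was lower (-0.26, adjusted p = 0.046), Map1lc3a higher by 0.53 (adjusted p = 0.0482; 11.19, 11.02 and 10.65 in DKO) and Bnip3 higher by 0.45 (adjusted p = 0.0118). The calls of Tax1bp1 and Map1lc3a each held in 1 of 6 fits that left out 1 library, and that of Bnip3 in 5.

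The chow comparison shares no library with DKO against LiFKO. Of the 8 members lower in DKO, 7 (87.5%) were higher in LiFKO on chow, and these are 70% of the 10 members higher on chow; the shares over all genes were 74.7% and 35.8%. Both members higher in DKO, Map1lc3a and Bnip3, were lower in LiFKO on chow (100%, and 28.6% of the members lower on chow; 61.7% and 23.7% over all genes). Flcn itself was lower in DKO than in LiFKO, and the summed hepatocyte marker level was higher, as given above; their part in these differences was not tested. Compared with Control, DKO differed in 1 member, Gabarapl1, which was higher by 0.61 (SE 0.12, adjusted p = 0.0297, limma), where 0.449% of all genes were higher and 0.203% lower. The groups did not overlap in 10 members (16.7% of all genes), and 6 members (14%) had an unadjusted p under 0.05, against 13.5% of all genes. The call of Gabarapl1 held in 2 of 6 fits that left out 1 library, and it did not pass when AMLN Control replicate 1, AMLN Control replicate 3, DKO replicate 2 or DKO replicate 3 was the one omitted. For the other genes the interval of DKO against Control was 0.08 to 0.39 for Map1lc3b (adjusted p = 0.141), -0.52 to -0.12 for Atg2b (adjusted p = 0.121) and -0.61 to -0.12 for Sqstm1 (adjusted p = 0.158). Ambra1, at 10.91, 10.73 and 10.86 in AMLN Control, 10.95, 10.72 and 10.99 in AMLN LiFKO and 11.13, 11.05 and 10.98 in DKO, differed by 0.22 (adjusted p = 0.311), as did Pik3c3, at 10.64, 10.72 and 10.46 in DKO (0.22, adjusted p = 0.369). These values did not pass, which does not show that DKO and Control were alike.

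Between diets, members of the ULK complex (Ulk1), the lipid transfer proteins (Atg2a and Atg2b) and the cargo receptors (Bnip3l) were lower on AMLN in both Control and LiFKO. In Control livers, 8 members were lower on AMLN than on chow and 1 higher, where 11.6% of all genes were lower and 11.2% higher. The members' median was -0.10 against -0.04, and 19 had groups that did not overlap (40.9% of all genes). The lower members included Ulk1 (-0.71, SE 0.10, adjusted p = 0.00048, limma), Atg14 (-0.70, SE 0.11, adjusted p = 0.00116), Atg2b (-0.54, SE 0.09, adjusted p = 0.00118), Map1lc3b (-0.49, SE 0.07, adjusted p = 0.000505) and Gabarapl1 (-0.45, SE 0.12, adjusted p = 0.014). Atg14 was at 10.82, 11.03 and 10.9 on chow and 10.21, 9.96 and 10.47 on AMLN, and Atg2b at 11.91, 11.9 and 11.94 on chow and 11.45, 11.41 and 11.26 on AMLN, so in both genes the diets stood clear of each other. In LiFKO, Atg14 was at 10.69, 10.8 and 10.58 on chow and 10.28, 10.26 and 10.33 on AMLN, and in DKO at 10.47, 10.4 and 10.31. Atg2a was at 12.12, 12.05 and 11.82 on chow and 11.53, 11.71 and 11.7 on AMLN. Atg2a (-0.35, SE 0.09, adjusted p = 0.0112), Atg9a (-0.30, adjusted p = 0.0201) and Bnip3l (-0.30, SE 0.08, adjusted p = 0.0134) completed the lower members, and Gabarap was the higher one (0.20, SE 0.07, adjusted p = 0.0433), a call that no fit without 1 library kept. Bnip3l was at 12.36, 12.34 and 12.34 on chow and 11.97, 12.02 and 12.15 on AMLN. Epg5, a tether of autophagosome and lysosome found under its older symbol, was also lower (-0.31, SE 0.09, adjusted p = 0.022).

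In LiFKO livers 4 members were lower on AMLN and 0 higher, where 2.16% of all genes were lower and 1.58% higher, and 18 had groups that did not overlap (24.9% of all genes). They were Ulk1 (-0.61, SE 0.10, adjusted p = 0.00742, limma), Atg2a (-0.40, SE 0.09, adjusted p = 0.0222), Atg2b (-0.36, SE 0.09, adjusted p = 0.038) and Bnip3l (-0.35, SE 0.08, adjusted p = 0.024). Atg2a was at 12.16, 12.18 and 12.19 on chow and 11.7, 11.75 and 11.87 on AMLN, and the libraries labelled DKO had 11.82, 11.67 and 11.74. Atg2b was at 11.96, 11.86 and 11.79 on chow and 11.67, 11.42 and 11.43 on AMLN. Bnip3l was at 12.27, 12.36 and 12.31 on chow and 11.94, 11.98 and 11.96 on AMLN, with 12.03, 12.29 and 12.25 in DKO. In all 3 genes the LiFKO libraries of the 2 diets did not overlap. Atg10 (0.55, adjusted p = 0.0563) and Atg14 (-0.40, adjusted p = 0.0693) came next and did not pass. In this comparison the count of 4 was 1 without chow LiFKO replicate 1, chow LiFKO replicate 2 or AMLN LiFKO replicate 2 and 2 without AMLN LiFKO replicate 1 or 3, and Ulk1 was the call that all 6 of these fits kept. Markers of cell types also moved with diet: in Control, 5 of 10 hepatocyte markers were lower on AMLN and 1 higher (median -0.58). There 5 of 7 stellate cell and fibrosis markers and 3 of 10 macrophage markers were higher. The summed level of 5 cholangiocyte markers in Control was 10.08 to 10.48 on chow and 12.07 to 12.68 on AMLN, with 1 of the 5 called higher (median 0.4). The part of these in the diet differences was not tested.

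Other genes of autophagy, from a list of 50 of which 40 were measured, were counted the same way. In LiFKO against Control, 9 (22.5%, against 12.5% of all genes) were higher and 5 (12.5%, against 13.2%) lower on chow. On AMLN, 12 (30%, against 10.1%) were higher and 2 (5%, against 9.63%) lower. Rab7, the GTPase of late endosome and lysosome fusion, was higher on chow (0.42, SE 0.06, adjusted p = 0.000215, limma) and AMLN (0.45, SE 0.06, adjusted p = 0.000161), and so was Smcr8, which forms a complex with C9orf72 (0.65, SE 0.12, adjusted p = 0.00117 and 0.64, SE 0.12, adjusted p = 0.00177). Tex264, a receptor of endoplasmic reticulum autophagy, was higher on chow (0.51, adjusted p = 0.00133) and Snap29, the SNARE that pairs with Stx17, on AMLN (0.65, adjusted p = 0.00189). Stbd1, which tethers glycogen to GABARAPL1, was lower on chow (-1.07, SE 0.14, adjusted p = 8.93e-05), and the mitophagy receptor Fkbp8 was lower on AMLN (-0.56, SE 0.07, adjusted p = 8.94e-05). In DKO against LiFKO 9 (22.5%, against 5.97% of all genes) were lower and 4 (10%, against 5.05%) higher. The lower ones included Rab7 (-0.52, SE 0.06, adjusted p = 8.79e-05), Tex264 (-0.56, adjusted p = 0.00195), Plekhm1, a Rab7 effector (-0.86, SE 0.15, adjusted p = 0.00204), and Tollip (-0.46, adjusted p = 0.00329). In DKO against Control and in the interaction 0 of 40 passed in limma, with 7 and 7 (17.5% each) at an unadjusted p under 0.05, against 13.5% and 15.7% of all genes. From chow to AMLN, 9 (22.5%, against 11.6%) were lower and 3 (7.5%, against 11.2%) higher in Control. Lower ones were Wac (-0.54, adjusted p = 0.000483), Retreg1, a receptor of endoplasmic reticulum autophagy (-0.99, SE 0.15, adjusted p = 0.000633), and the transcription factors Foxo3 (-0.44, adjusted p = 0.00297) and Foxo1 (-0.73, adjusted p = 0.00375). In LiFKO 2 (5%, against 2.16%) were lower, C9orf72 (-0.94, adjusted p = 0.00993) and Foxo3 (-0.38, adjusted p = 0.0252), and 0 higher.

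TFE3 ChIP-seq had been done in livers fed freely, on chow (4 libraries each of Control and LiFKO, 1.5e11 genome copies) and after 9 days of FPC diet, a diet of fructose, palmitate and cholesterol (3 libraries each). On FPC diet, Control and LiFKO mice had 2.5e11 genome copies of the GFP or Cre virus. Control+1c and LiFKO+1c mice had 1.5e11 of it with 1.0e11 of a virus for HA-nSREBP-1c, the tagged nuclear form of an activator of lipid synthesis, under an ApoE/AAT promoter. The authors deposited 1 peak list per group from pooled libraries, so peaks have no replicate error and no test was run, and feeding and diet time differ from RNA-seq. The header of the lists names what was pooled. For FPC Control, FPC LiFKO and FPC Control+1c it names 1 input and 2 TFE3 libraries as the ChIP pool and a TFE3 library as the input, and for HA in LiFKO+1c it names 1 TFE3 and 2 HA libraries. Whether names or libraries had been exchanged was not tested, so the chow lists and FPC LiFKO+1c are given first and the other FPC lists beside them. Positions are on mm9, and the start of a gene is the 5′ end of its deposited span with the strand from RefSeq, known for 36 members and 9670 genes in all.

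A larger share of the members than of all genes had a TFE3 peak at the start, also in Control liver. In chow Control a peak was centred within 1000 bases of the start of 21 of 36 members (58.3%) and of 27.4% of all genes, and in chow LiFKO at 28 members (77.8%) and 53.6% of genes. In FPC LiFKO+1c it was 29 members (80.6%) and 58.5% of genes. In the lists with mixed pool names it was 11 members in FPC Control (18.4% of genes), 27 in FPC LiFKO (45.9%) and 13 in FPC Control+1c (18.3%). The chow LiFKO list is longer than the chow Control list (26445 against 11385 peaks), so more genes of any kind hold a peak in it. A peak in chow LiFKO and not in chow Control was found at 7 members (19.4%), against 27.9% of all genes. Genes with a Control peak cannot be among these, and they were 58.3% of the members but 27.4% of all genes. These shares therefore do not say whether members gained peaks more or less often than other genes. On FPC diet, with lists whose pool names are mixed, 16 members (44.4%) had one in LiFKO and not in Control, against 28.9% of all genes, with the same limit.

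**Figure D3:**
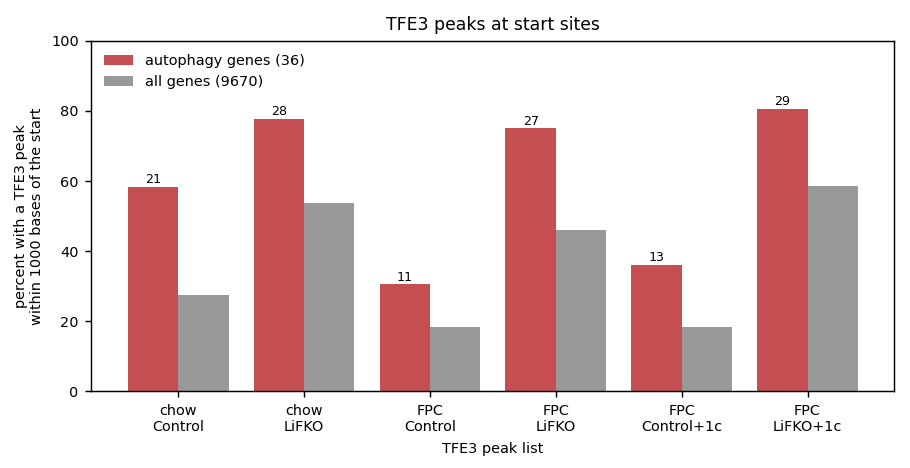
Percent of the 36 members (red, with their number above) and of all 9670 genes with known strand (grey) that have the centre of a TFE3 peak within 1000 bases of the start, in each of the 6 pooled lists. The red bar is higher than the grey bar in all 6 lists, and both are higher in the LiFKO lists than in the Control lists.

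A peak was at the start in all 6 TFE3 lists for 7 members (19.4%, against 8.26% of all genes): Gabarap, Gabarapl1, Gabarapl2, Optn, Uvrag, Bnip3 and Atg14. They include genes higher in LiFKO on both diets (Gabarap, Gabarapl1 and Optn), a gene lower in LiFKO on chow (Bnip3) and genes called in neither comparison (Gabarapl2, Uvrag and Atg14). At Gabarapl1 the chow peaks were centred 243 bases before the start in Control and 239 in LiFKO, with HOMER peak scores of 62.9 and 78, above 99.5% and 99.3% of the peaks in their lists; the score is the authors' and ranks peaks within a list only. At Gabarap they were centred 41 and 25 bases before the start, with scores above 98.9% and 99.5% of peaks. At Uvrag, whose RNA did not pass in any comparison, the peak 275 bases before the start in FPC LiFKO+1c scored above 99.9% of that list, and those of chow above 98.1% and 97.8%. Bnip3 had a peak 152 and 151 bases before the start on chow, above 84.9% and 86.2% of peaks, and its window holds the CACGTG from base -108 to base -103. Such centres and the RefSeq windows are on different builds, so it was not tested whether a peak covers a printed site.

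Of the other genes higher in LiFKO on both diets, Ulk1, Wipi1, Map1lc3b and Atg10 had peaks at the start in chow Control, chow LiFKO and FPC LiFKO+1c. Ulk1 had one 74 and 54 bases before the start on chow and a higher-scoring one inside the gene, 1775 and 1767 bases after it, which was present in all 6 TFE3 lists. The peaks of Wipi1, 52 bases after the start in both chow lists, scored above 95.5% and 96.4% of peaks. Map1lc3b had a peak at the start (1 and 20 bases before it on chow) and a higher-scoring one 4921 and 4931 bases upstream. Atg7 was the exception: it had 0 peaks within 1000 bases of its start in all 6 lists. Among chow peaks inside the gene, the nearest to the start lay 138844 bases after it in Control and 138880 in LiFKO. They scored above 22.9% and 46.9% of the peaks. Whether a nearer peak lies farther upstream, outside the gene, was not tested. RefSeq's single window of Atg7, which holds CACGTG from base -132 to base -127, was not placed on mm9. Its 250 bases before the start end at chr6:114671095 on GRCm38.p6, and the span of Atg7 starts at 114593149 on mm9. For Gabarapl1, on the same chromosome, these positions are 129533191 and 129483218. The 2 builds are thus apart by a larger amount at Atg7, so its window may mark a start inside the gene. Whether it marks the start used for peaks was not tested.

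Sqstm1 also had 0 peaks within 1000 bases in all 6 lists, together with Atg4a and Atg4b; 4 members (11.1%) were without one, against 28.7% of all genes. It had a peak farther upstream in every list, 2491 bases before the start in chow Control, 2220 in chow LiFKO and 2409 to 2439 in the FPC lists, and the chow LiFKO peak scored above 99.6% of its list. Among the members higher in LiFKO on chow, 7 of 10 had a peak at the start in chow Control and 8 of 10 in chow LiFKO. Among the members not called on chow, 10 of 22 with known strand had one in chow Control and 16 of 22 in chow LiFKO. All 4 lower members with known strand had one in both. TFE3 peaks thus stood at the starts of members that were higher, lower and not called. Of the 7 members without a known strand, Map1lc3a had a peak within 1000 bases of 1 end in chow LiFKO, FPC LiFKO and FPC LiFKO+1c, and Bnip3l in all 6 lists.

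**Figure D4:**
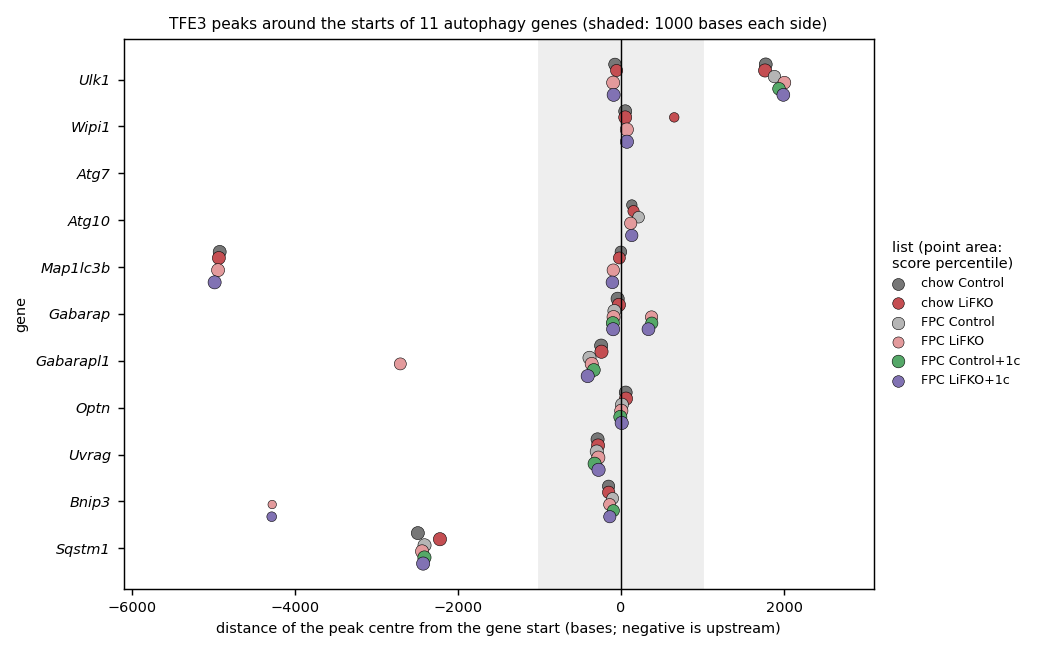
Centres of TFE3 peaks (points, coloured by list, area by score percentile within the list) by their distance from the gene start in bases for 11 members; the shaded band is 1000 bases on either side. Points of Gabarapl1, Gabarap, Optn, Uvrag and Bnip3 fall in the band in all 6 lists, those of Sqstm1 lie 2220 to 2491 bases upstream, and Atg7 has no point in the range drawn.

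HA-nSREBP-1c had no peak within 1000 bases of a member's start in Control+1c or LiFKO+1c (1.93% and 1.38% of all genes had one). Inside the genes, HA peaks were found at 81513 bases from the start of Ambra1 in both lists, and at Ulk1, 2011 bases from the start, in LiFKO+1c. The Ulk1 peak joined a run of overlapping peaks that holds TFE3 peaks of all 6 lists. It did not itself overlap the chow TFE3 peaks there. In Control+1c HA peaks were also found in Atg16l2 (3715 bases from the start), Bnip3 (11223) and Uvrag (65819), and in LiFKO+1c in Uvrag at the site described next. Uvrag carried the 1 site at a member among the 96 TFE3 sites that the authors' deposited table lists as stronger in LiFKO+1c than in LiFKO on FPC diet. In the authors' deposited table it is at chr7:106169055-106169219 on mm9, in intron 6 of 14 of the gene, 120517 bases from the start, with a log2 fold change of 3.73 and an adjusted p of 0.00417. An HA peak of LiFKO+1c (chr7:106168956-106169132) overlaps it. FPC LiFKO, its reference, is one of the groups whose list header mixes names, and RNA-seq on FPC diet was not analysed here.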

How the data were processed

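RNA was measured in 15 liver libraries, and peaks in pools of the 39 ChIP-seq and input libraries. Per the submitters' processing notes the authors used Trimmomatic (0.32), STAR (2.6.0c), featureCounts and limma for RNA-seq, and Bowtie2 (2.2.8 on chow, 2.2.6 on FPC diet) and HOMER (4.11 and 4.4) for ChIP-seq, all on mm9. The RNA-seq table holds the authors' deposited log2 values, which share their quartiles over the libraries, as quantile normalization gives. With no counts, only the number of libraries states the precision. Per the file headers, each peak list merges peaks that the authors called on pooled libraries over input and over a background ChIP (Tfe3KO liver, or liver without the HA tag), and its score ranks peaks within a list. The p-values and log2 fold changes of the authors' deposited table of differential sites came from HOMER with DESeq2, per its header.

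Here limma 3.58.1 (R 4.3.3) was run on all 15 libraries at once with a mean for each group, which leaves 10 residual degrees of freedom, and with a mean-variance trend, for 13815 genes and 7 comparisons, two-sided, with Benjamini-Hochberg adjustment over all genes. Same-numbered chow libraries deviated together (correlations of their deviations 0.113 to 0.237, others -0.188 to 0.043), so the replicate number was used as a block there as an alternative chosen after seeing the data. Other pairs of groups did not meet this rule. Peaks were set against gene starts with a window of 1000 bases, and 0 value columns were left unmapped. The limma fit was tested on simulated data for LiFKO against Control on chow, and the other steps were not. The members, the other gene lists and the naming rule were chosen with earlier results of these data known. Values in every library are given for the 6 members with the smallest p in each comparison and for Ulk1, Becn1, Atg5, Atg7, Map1lc3b, Gabarapl1, Sqstm1, Wipi1, Uvrag and Bnip3, and of other autophagy genes the 4 called ones with the smallest p are named. Alternatives changed the variance prior, the libraries fitted, the gene filter, an added offset, library weights, the block, the library left out and the peak window.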

Additional observations from a re-analysis of the deposited data

How the results depend on the processing

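No call of a member changed direction under the alternatives run, and the direction of differences that were not called was not tracked. Of the counts of members called, DKO against Control (1) was 0 without the trend in the prior and with only the groups compared, 4 with library weights and 0 to 2 with 1 library left out. AMLN against chow in LiFKO (4) was 1 with only the groups compared and 1 to 4 with 1 library left out, and in Control (9) it was 17 with library weights and 6 to 10 with 1 left out. The interaction (0) was 1 with library weights and 0 to 1 with 1 left out; the gene was Sqstm1 with weights and without AMLN Control replicate 3. LiFKO against Control was 11 to 14 on chow (17) and 8 to 12 on AMLN (11), and DKO against LiFKO 8 to 9 (10), with 1 left out. Why counts moved was not tested. With the replicate block over all libraries the counts were 14, 11, 9, 1, 8, 4 and 0. It ended the chow calls of Atg10, Tax1bp1 and Stx17, that of Tax1bp1 in DKO against LiFKO and that of Gabarap between diets in Control. Same-numbered libraries pair only on chow, where the block kept 14 calls. Windows of 5000 bases raised the members with a peak in FPC Control from 11 to 18 (24.6% of genes), and counting the whole gene raised it to 19 (35.8%) and FPC Control+1c from 13 to 21 (36.8%). The HA counts of 0 became 1 and 4 in Control+1c (3.78% and 7.16%) and 1 and 3 in LiFKO+1c (2.57% and 5.47%). Assigning peaks by an annotation in the lists, also planned, was not run, since they carry none. Among single members, 3765 repeated values stayed as they were, 107 lost a call and 41 gained one. The 3765 include members that were called in neither fit, so they do not count calls kept. Calls that held in every fit leaving out 1 library were 11 of 17 for LiFKO against Control on chow and 7 of 11 on AMLN. They were 7 of 10 for DKO against LiFKO and 0 of 1 for DKO against Control. Between diets they were 4 of 9 in Control and 1 of 4 in LiFKO. Precision rests on 3 libraries per group, and the peak lists have no replicates.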
